A study of Mus musculus with 84 samples.

Results

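Constant H3K27ac promoters are regions near gene starts, under 10000 bp wide, that held an H3K27ac peak in every H3K27ac library of mouse colon epithelium in the series. They were selected on the H3K27ac peak lists alone. Overlapping peaks of all 23 H3K27ac lists were merged into 70669 regions, and a region was kept if it was under 10000 bp wide, had a peak in all 23 lists and lay within 1000 bp of a gene start. This left 7360 members, or 10.4% of the merged regions, on 20 chromosomes. The starts of 8758 of the 25494 genes in the count table (34.4%) lay in a member or within 1000 bp of one.

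The series followed C57BL/6 mice on a high fat diet (HFD) or a low fat diet (LFD), and germ-free male C57BL/6 recipients on either diet that were given fecal bacteria from HFD-fed donors (HFB) or LFD-fed donors (LFB). H3K27ac was measured in HFD males, LFD males, HFD females and LFD females (3 libraries each) and in HFDHFB (2 libraries), HFDLFB, LFDHFB and LFDLFB male recipients (3 libraries each). H3K4me1 was measured in the 4 groups by sex and diet (3 libraries each), HNF4α in HFD and LFD males (2 libraries each) and RNA in the 4 recipient groups (3 libraries each). The tissue of every sample was labelled colon epithelium, and the levels of marker genes of other cell types are given below. According to the paper, epithelial cells were shaken off the tissue in EDTA, and epithelial cells served for ChIP-seq. Cells for the recipients' RNA were instead scraped from colon tissue, so ChIP-seq and RNA differed in preparation. No RNA counts of the long-term diet study were analysed here, so expression and HNF4α came from different animals.

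H3K27ac, acetylation of lysine 27 of histone H3, marks active promoters and active enhancers. H3K4me1, monomethylation of lysine 4 of the same histone, is typical of enhancers and of the flanks of active promoters, while the nucleosomes next to an active gene start usually carry trimethylation at that position instead. HNF4α is a nuclear receptor that binds DNA as a homodimer and maintains the gene programme of the intestinal epithelium. Promoters of genes used by every cell tend to be rich in CpG and to lack a TATA box.

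The promoter windows of 6 members are shown because they span the extremes of the set. Eef1a1 (translation elongation factor) and Cox4i1 (cytochrome c oxidase subunit) were among the highest in expression. Car1 (carbonic anhydrase of colonocytes) and Rps12 (ribosomal protein) were the highest in expression among members with HNF4α in all 4 libraries. Synpo2l was among the lowest in expression, and Pja1 (ubiquitin ligase) was the highest among members without H3K4me1. Each window runs 5′ to 3′ on the strand of the gene in mm9, from 250 bases before to 50 bases from the gene start. Capitals mark the motif cores that were searched for and found on either strand, among them GGGCGG (Sp/Klf, read as CCGCCC on the other strand), GCATGCGC (NRF1), CCAAT (NF-Y) and TGACGTCA (CRE).

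Eef1a1, chr9:78329482-78329781, minus strand: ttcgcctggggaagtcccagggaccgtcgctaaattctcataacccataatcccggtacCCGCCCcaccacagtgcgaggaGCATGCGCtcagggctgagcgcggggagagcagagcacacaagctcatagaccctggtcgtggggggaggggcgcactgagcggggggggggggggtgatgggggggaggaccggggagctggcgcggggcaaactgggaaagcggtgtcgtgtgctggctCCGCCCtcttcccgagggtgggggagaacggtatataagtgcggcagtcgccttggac

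Cox4i1, chr8:123191875-123192174, plus strand: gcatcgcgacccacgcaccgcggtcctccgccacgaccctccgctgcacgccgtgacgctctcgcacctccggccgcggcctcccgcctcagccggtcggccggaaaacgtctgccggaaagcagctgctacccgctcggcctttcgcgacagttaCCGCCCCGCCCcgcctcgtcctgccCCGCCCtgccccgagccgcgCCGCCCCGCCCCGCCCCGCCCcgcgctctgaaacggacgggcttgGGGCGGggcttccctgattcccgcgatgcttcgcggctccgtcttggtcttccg

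Car1, chr3:14808316-14808615, minus strand: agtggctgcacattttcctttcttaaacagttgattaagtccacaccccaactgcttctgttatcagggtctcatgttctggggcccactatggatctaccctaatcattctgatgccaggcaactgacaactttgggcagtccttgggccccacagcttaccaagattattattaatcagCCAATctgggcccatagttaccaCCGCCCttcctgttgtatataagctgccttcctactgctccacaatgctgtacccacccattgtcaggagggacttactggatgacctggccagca

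Rps12, chr10:23506966-23507265, minus strand: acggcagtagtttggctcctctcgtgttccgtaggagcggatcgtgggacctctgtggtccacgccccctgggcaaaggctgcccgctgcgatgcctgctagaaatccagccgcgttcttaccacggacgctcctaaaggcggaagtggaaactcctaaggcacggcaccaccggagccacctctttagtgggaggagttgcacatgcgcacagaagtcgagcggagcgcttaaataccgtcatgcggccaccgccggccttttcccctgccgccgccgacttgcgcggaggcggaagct

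Synpo2l, chr14:21487527-21487826, minus strand: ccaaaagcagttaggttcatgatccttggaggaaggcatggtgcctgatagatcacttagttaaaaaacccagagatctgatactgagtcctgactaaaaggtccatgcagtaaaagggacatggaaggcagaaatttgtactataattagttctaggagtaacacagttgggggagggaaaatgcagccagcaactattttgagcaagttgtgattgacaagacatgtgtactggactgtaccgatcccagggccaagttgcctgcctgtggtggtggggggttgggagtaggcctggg

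Pja1, chrX:96666025-96666324, minus strand: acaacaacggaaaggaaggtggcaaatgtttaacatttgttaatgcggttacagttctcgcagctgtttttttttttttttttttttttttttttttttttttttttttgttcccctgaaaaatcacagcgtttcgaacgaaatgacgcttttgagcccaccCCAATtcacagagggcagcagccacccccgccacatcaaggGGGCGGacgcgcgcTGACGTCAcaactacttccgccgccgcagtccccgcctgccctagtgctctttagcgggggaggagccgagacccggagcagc

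The Cox4i1 window held 8 copies of GGGCGG, some of them overlapping, 48 CpG dinucleotides and a GC content of 75.3%. The Car1 and Synpo2l windows held 1 CpG each, and their GC contents were 49.0% and 47.3%. The Rps12 and Synpo2l windows overlapped an HNF4α peak in all 4 libraries although neither held any searched core, and the Car1 window overlapped none.

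Over all members, the windows were rich in GC and CpG. The median GC content of the 8758 member gene starts was 60.7%, and the median ratio of observed to expected CpG was 0.79. A window with a GC content of at least 55% and a CpG ratio of at least 0.65 was called CpG-rich. This held for 60.6% of member gene starts, for 57.0% of gene starts at constant regions of 10000 bp or more, for 31.3% at variable promoters (a peak in some lists but not all) and for 9.65% of gene starts without a region. Over all 25334 windows it was 35.1%.

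The motif content followed the same order for several cores. GGGCGG stood in 65.2% of member windows against 43.1% of all windows. Windows at constant regions of 10000 bp or more (wide constant promoters) were close to members, with 64.5%. CCGGAAG (ETS) stood in 21.3% against 10.6%, GCATGCGC in 6.07% against 3.19%, TGACGTCA in 3.86% against 2.40% and AAGATGGCG (YY1) in 3.91% against 1.80%. At wide constant promoters these shares were 14.3%, 4.02%, 2.90% and 2.48%. TCGCGAGA (ZBTB33) stood in 219 of the 8758 member windows, against 1.29% of all windows and 2.24% at wide constant promoters. CACGTG (E-box) stood in 10.2% against 7.54%, but in 10.5% at wide constant promoters, so it did not follow that order. CCAAT was as frequent in member windows (38.4%) as in all windows (38.3%). TATAAA was found in 6.52% of member windows against 13.3% of all windows. It was found in 8.22% at wide constant promoters and in 20.6% of windows of genes without a region. TGACTCA (AP-1) was found in 3.13% against 4.60%, and in 4.06% at wide constant promoters. The 4 HNF4α cores CAAAGTCCA, CAAAGTTCA, CAAAGGTCA and CAAAGGCCA were found together in 1.44% of member windows and 1.66% of all windows. All cores were searched on both strands, matches of different cores may overlap, and a match is a description of the sequence only.

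Of the 7360 members, 6056 had a single gene start in the region or within 1000 bp of it, 1214 had 2 and 90 had 3 or more. In 1124 members (15.3%) gene starts lay on both strands. Members had a median width of 4600 bp, with the middle 50% between 3400 and 6400 bp, against 2000 bp for variable promoters and 5200 bp for constant regions away from gene starts. The width limit is part of the rule, so the narrower width against wide promoters is no finding. At the limits of the rule, 364 members were narrower than 10000 bp by at most 1000 bp, and 282 constant promoter regions reached or passed 10000 bp by less than 1000 bp. Another 269 promoter regions under the width limit had a peak in 22 of the 23 lists. In 102 members every linked gene start lay outside the region, and 115 constant regions under the width limit lay over 1000 and up to 2000 bp away from one.

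A peak in every list did not mean the same peak in every list. The median member was covered over 2600 bp in the median list, and 1400 bp of it, or 31.6% of its width, were covered in all 23 lists. In 46 members no base was shared by all lists. The share of the members' summed width that was covered ran from 53.1% in an HFD male library to 68.1% in an HFDHFB library. It was 65.3% ± 1.29 (SD, n = 3) in HFDLFB, 57.4% ± 0.691 in LFDHFB (n = 3) and 59.0% ± 4.44 in LFDLFB (n = 3). The library with the highest share also had the most peaks, 51873 against 38317 to 49147 in the others. No test was made, since the same lists chose the members.

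Between lists, the covered length of a member varied by a median coefficient of variation of 22.2%. The steadiest member held the start of Cpt1a, which carries long-chain fatty acids into mitochondria, at chr19:3318601-3327200 (coefficient of variation 1.61%). Its covered length ran from 8000 to 8600 bp over the 23 lists, and 8000 bp were shared by all of them. Fam195a (4.46%) and Ergic1 (4.57%) came next. The least steady members held Alms1 (66.9%), which encodes a centrosomal protein, Fbxo21 (66.5%) and Tada2b (61.6%), a subunit of acetyltransferase complexes. The covered length at Alms1 ran from 600 bp to 3400 bp around a median of 800 bp.

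Member genes were expressed in the recipients' colon, at intermediate to high levels. A level is given here as the mean log2 CPM over the 12 RNA libraries minus log2 of the exon length in kb, so that genes can be compared, and was available for 7780 member genes (88.8%). The median level was 2.66 in member genes, with the middle 50% between 1.16 and 3.99. It was 4.12 in genes at wide constant promoters, -0.75 at variable promoters, -4.35 in genes without a region and -0.01 over all genes with a length. By library group the median over member genes was 2.66 ± 0.05 in HFDHFB, 2.65 ± 0.08 in HFDLFB, 2.66 ± 0.05 in LFDHFB and 2.64 ± 0.02 in LFDLFB (SD, n = 3 each). The scaling of libraries (TMM) brings the bulk of genes to similar levels, and member genes were 8228 of the 15893 genes tested. Similar medians are thus largely set by the scaling and do not show unchanged expression. Of the member genes, 93.9% passed the filter on low counts and 1.71% had no read in any library, against 62.3% and 23.6% of all genes in the table. Member genes took 44.5% of all counted reads and genes at wide constant promoters took 47.5%.

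**Figure D1:**
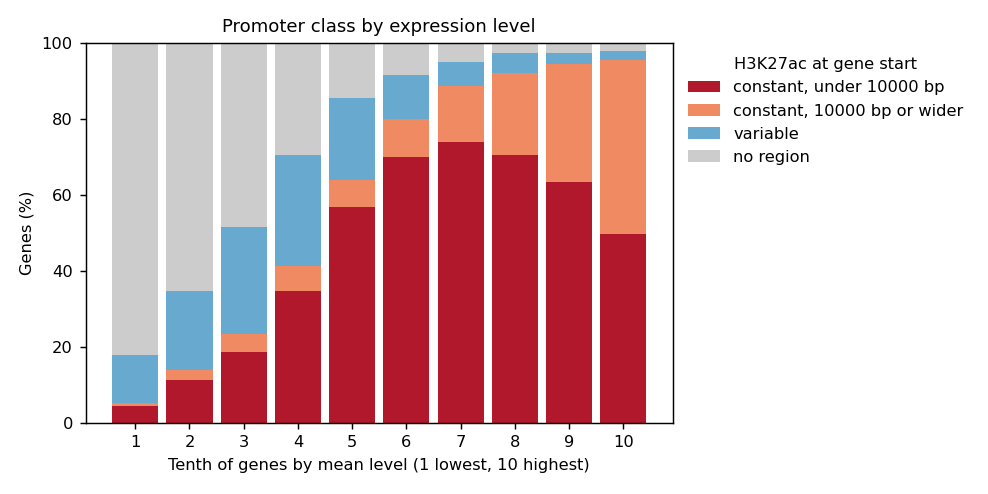
Share of genes (%) by H3K27ac at the gene start, for deciles of all genes with a length and at least 1 read, ordered by mean level over 12 RNA libraries. Constant promoters under 10000 bp rose from 4.34% of the lowest decile to 74.0% of the seventh and were 49.6% of the highest decile, where wide constant promoters were 46.0%.

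Ordered by expression, members were most common among genes of the upper middle. They were 4.34% of the lowest decile of genes, 74.0% of the seventh decile and 49.6% of the highest decile. In the highest decile, 46.0% of genes had a wide constant promoter and 2.17% a variable one. Among members, wider regions went with higher levels (Spearman's rho 0.25 across 7780 genes, which are not independent and share their libraries). Median levels were 1.87 in the narrowest quartile of members and 3.32 in the widest quartile.

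The highest member genes were S100a6 (calcium-binding protein, level 11.67), Car1 (11.16), Eef1a1 (10.99), Rplp1 (ribosomal stalk protein, 10.89) and Cox4i1 (10.65). In single libraries, Eef1a1 ran from 4315 to 5762 CPM around a median of 5136 CPM. Cox4i1 ran from 850 to 1373 CPM around a median of 1075 CPM. Car1 was the most variable of the 5, from 1172 to 9127 CPM around a median of 2693 CPM. Reads of Eef1a1, Rplp1, Cox4i1 and other ribosomal genes can also match processed copies elsewhere in the genome, so their counts are uncertain to that extent.

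At the other end, 169 members (2.30%) held no gene that passed the filter on low counts. The 5 members whose best gene was lowest held 4932412D23Rik, 9330111N05Rik, Akap2, Ccdc108 and Synpo2l. No read of 4932412D23Rik was counted in any library, and Akap2, Ccdc108 and Synpo2l stayed at or under 0.179, 0.174 and 0.151 CPM. HNF4α had a peak in all 4 libraries in 4 of these 5 members, and the H3K4me1 peaks of all 12 libraries covered the starts of Akap2, Ccdc108 and Synpo2l. Over the 169 members without a gene past the filter, HNF4α had a peak in all 4 libraries in 29.6%, H3K4me1 covered a gene start in all 12 libraries in 42.0% and 15.4% had a CpG-rich window. The same shares were 12.7%, 12.9% and 63.5% in the 7191 other members.

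The gene lists separated general cell functions from intestinal identity. The lists were chosen with results of these data known, and their shares are descriptions beside the 34.4% of all genes in the table that were member genes. Of the proteasome genes 31 of 34 had a constant promoter, of the mitochondrial respiratory chain 63 of 75, of RNA polymerase II and Mediator 46 of 55, of the cytosolic ribosomal proteins 64 of 78 and of the spliceosome 32 of 40. Translation initiation followed with 24 of 33 and histone acetylation with 22 of 31. Most of the other genes of these lists had a wide constant promoter, so that none of the 78 ribosomal, 75 respiratory chain, 40 spliceosome and 33 initiation genes lacked constant H3K27ac. Psma6, at a level of 6.89, was the proteasome gene without a region at its listed start. Hdac7 and Hdac9 had no region, and Hdac6 and Hdac8 had a variable promoter.

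Intestinal transcription factors showed the reverse. Of 30 genes, 25 had a constant region of 10000 bp or more, among them Elf3, Klf4, Hnf4a and Cdx1, and 3 were members. The 3 were Foxa3 (4.05), a forkhead factor, Myc (2.32), which drives growth, and Maf (0.46). Of the 17 general epithelial genes Krt18 (8.32), a keratin, was the only member and the other 16 had wide regions. Absorptive colonocyte genes had 5 members of 20 (Car1, Ceacam1, Selenbp1, Emp1 and Slc5a8, a butyrate transporter) and 14 wide regions. Goblet genes had 2 members of 11, Fcgbp and Foxa3. The width limit of the rule keeps wide regions out, so this split rests on the rule.

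**Figure D2:**
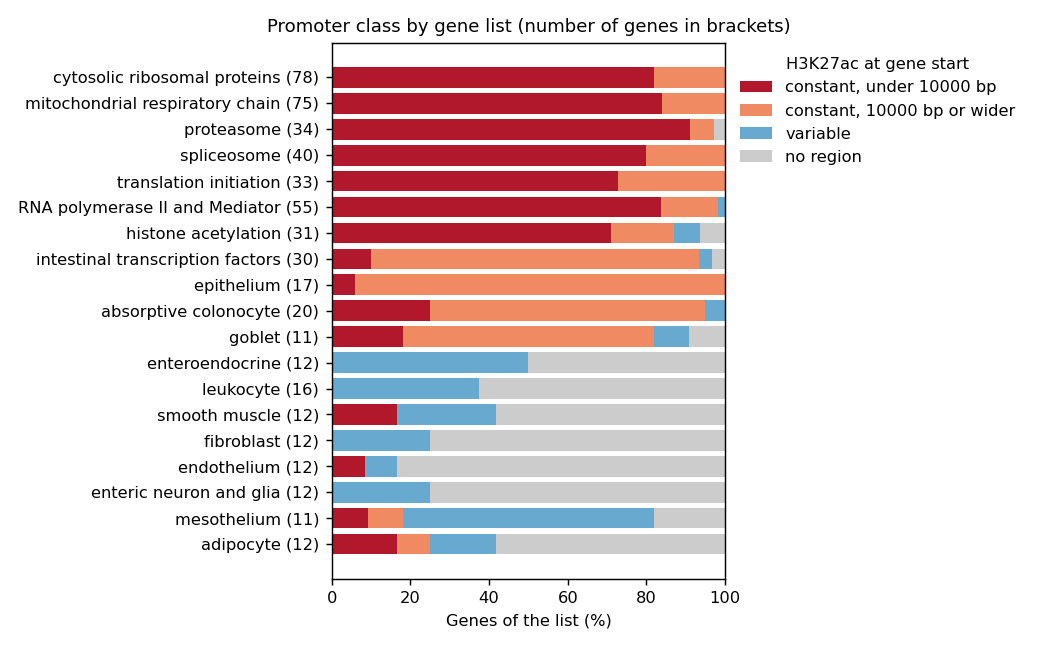
Share of the genes of each list (%) by H3K27ac at the gene start, with the number of list genes in the count table in brackets. Lists of general cell functions were mostly constant promoters under 10000 bp (71.0% to 91.2%), while 25 of 30 intestinal transcription factors had a constant region of 10000 bp or more.

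Genes of enteroendocrine cells, which belong to the epithelium, and of cell types outside the epithelium seldom had a constant promoter. None of the 12 enteroendocrine, 16 leukocyte, 12 fibroblast and 12 enteric neuron and glia genes was a member. Smooth muscle had 2 of 12 (Actg2 and Smtn), adipocyte 2 of 12 (Lipe and Plin1), endothelium 1 of 12 (Pecam1) and mesothelium 1 of 11 (Krt7). The RNA libraries did hold RNA of cell types outside the epithelium. The summed smooth muscle level ran from 1277 to 7721 CPM over the 12 libraries and the summed adipocyte level from 48.4 to 4680 CPM, while the summed epithelial level ran from 13468 to 19963 CPM. In bulk samples, fewer cells of a type and less RNA per cell cannot be told apart.

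H3K4me1 was present in nearly every member but spared the gene start. Per library, 96.4% to 98.8% of members had an H3K4me1 peak somewhere, and 6761 members (91.9%) had one in all 12 libraries. A gene start was covered in only 34.0% to 40.7% of members. In 1755 members H3K4me1 covered no gene start in any library, and in 1011 it covered one in all 12. Along the member gene starts, H3K4me1 coverage averaged 65.1% at 800 bp before the start, 34.2% at the start and 83.0% at 1200 bp after it. H3K27ac coverage was highest at 200 bp after the start (94.7%). The rule chose members by H3K27ac near a gene start, so high H3K27ac there is no finding. Counted per gene start, the peaks of single libraries covered 30.9% to 37.2% of member gene starts. The share was near that at wide constant promoters, with 36.4% to 42.1%. It was 67.2% to 72.3% at variable promoters and 8.87% to 12.3% at genes without a region.

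**Figure D3:**
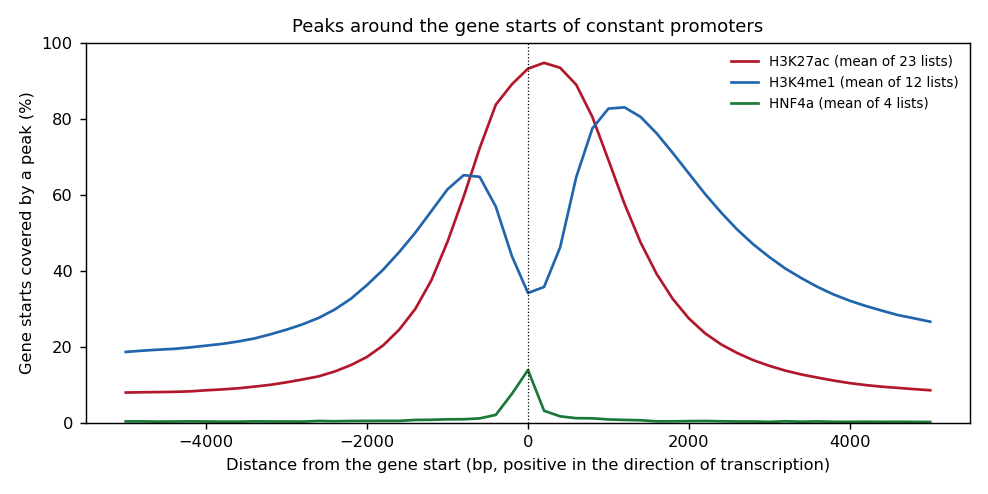
Share of member gene starts (%) covered by a peak against the distance from the gene start in bp, as the mean over 23 H3K27ac, 12 H3K4me1 and 4 HNF4α lists. H3K27ac, by which the members were chosen, reached 94.7% at 200 bp after the start. H3K4me1 fell to 34.2% at the start between flanks of 65.1% and 83.0%, and HNF4α reached 13.9% at the start.

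Coverage of the start by H3K4me1 went with lower expression and lower GC content among member genes. The 1049 member genes covered in all 12 libraries had a median level of 1.64, and their median GC content was 56.0%. The 2406 genes covered in none had a median level of 2.98, and their median GC content was 63.3%. The 5303 genes in between had a median level of 2.62 and a median GC content of 60.3%. CCGGAAG was found in 5.34% of windows of the first set and 26.3% of the second.

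In 14 members no H3K4me1 peak was found in any library. They were 800 to 3000 bp wide, and 9 of the 14 lay on chromosome X, which held 3.18% of all members. The highest in level were Pja1 (4.12), Fgfr1op (1.47), Tagap1, Armcx3 (0.85) and Zfp182 (0.81), of which Pja1, Armcx3 and Zfp182 lie on chromosome X. Pja1 ran from 51.8 to 62.9 CPM around a median of 57.2 CPM. The median level of the 15 genes of these members that had a length was 0.03.

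Diet was compared by the number of members with H3K4me1 over a gene start. In HFD males the 3 libraries had 2540, 2502 and 2591 such members, and in LFD males 2790, 2770 and 2841. The diets did not overlap in males. The difference was -256 members (HFD minus LFD), with a p of 0.1 by the two-sided exact permutation test, the smallest that 3 against 3 can give. In females the HFD libraries had 2852, 2649 and 2910 and the LFD libraries 2799, 2831 and 2997, so the diets overlapped. The female difference was -72.0 members (p = 0.6, exact permutation test).

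Over both sexes, with diets permuted within sex, the difference was -164 members (p = 0.03, exact permutation test). Without HFD male replicate 2 it was -153 and without LFD male replicate 3 -154 (p = 0.05 in both, exact permutation test). Without HFD female replicate 2 it was -125 (p = 0.06, exact permutation test) and without LFD female replicate 3 it was -134 (p = 0.055, exact permutation test). When a peak anywhere in the member was counted the difference was -3.00 (p = 0.91, exact permutation test). The difference between the sexes, 184 members, had a p of 0.25 by the exact permutation test. The gene starts of wide constant promoters showed the same order in males, with 36.4% to 37.9% covered in HFD and 39.4% to 40.4% in LFD, and those of variable promoters overlapped (67.2% to 72.0% and 69.9% to 72.3%). Few single members split fully by diet. In males, 11 had the start covered in the 3 HFD libraries and no LFD library and 46 the reverse, and in females the counts were 33 and 28. In the same order these were 0.149%, 0.625%, 0.448% and 0.380% of members, beside 0.121%, 0.546%, 0.402% and 0.289% of all 12446 promoter regions, which include the members.

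**Figure D4:**
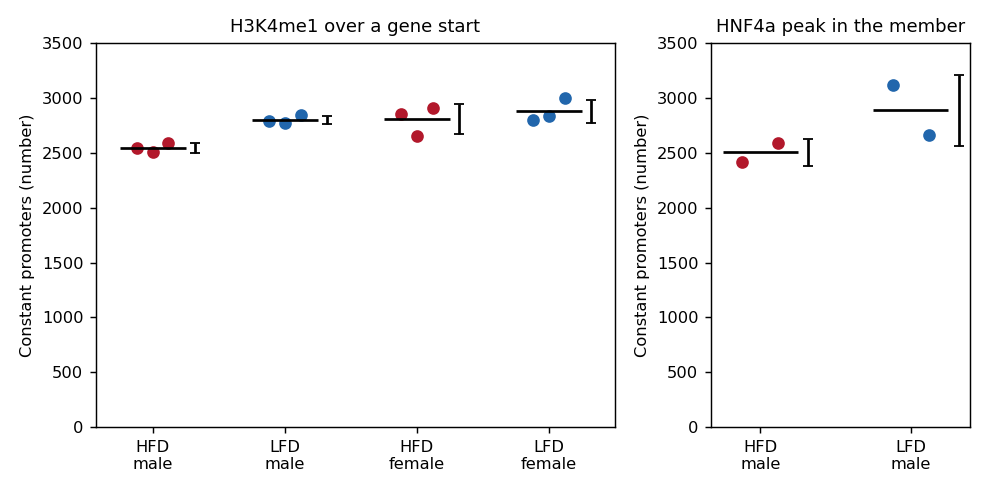
Number of constant promoters with H3K4me1 over a gene start (left, 12 libraries) and with an HNF4α peak (right, 4 libraries), by sex and diet, with points for libraries, horizontal lines for means and bars for the SD. HFD males had 2502 to 2591 members with H3K4me1 over a start and LFD males 2770 to 2841, and HNF4α had 2414 and 2588 in HFD against 3112 and 2658 in LFD.

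HNF4α bound a large part of the members in at least 1 library, but few in all. It had a peak in 2414 and 2588 members in the HFD males and in 3112 and 2658 in the LFD males (32.8% to 42.3%). Each LFD library had more than each HFD library. The difference was -384 members with a p of 0.333 by the two-sided exact permutation test, the smallest that 2 against 2 can give. LFD male replicate 1 had the most members and also the most peaks genome-wide (27766 against 21308 to 22640), and without it the difference was -157. LFD male replicate 2 had the fewest peaks genome-wide (21308) but more members (2658) than either HFD library. The part of the number of peaks in the result was not tested further. A peak in both LFD libraries and no HFD library was seen in 269 members (3.65%, beside 1.42% of all merged regions), and the reverse in 124 (1.68%, beside 0.841%). Of the 70669 merged regions 49104 were variable regions away from gene starts. The same split was not counted for other constant regions, and the part of width and number of peaks in these shares was not tested.

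All 4 libraries had an HNF4α peak in 962 members (13.1%), and none had one in 2292 (31.1%). The share with all 4 was 2.57% among variable promoters, 31.9% among constant regions away from gene starts and 62.3% among wide constant promoters. Wider regions offer more room for a peak, and the density per Mb was 73.7 to 98.2 peaks in members, 41.5 to 68.0 in variable promoters, 104 to 135 in constant distal regions and 83.5 to 103 in wide constant promoters. Each library's density in members was thus above its density in variable promoters and below that in constant distal regions.

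HNF4α peaks gathered at the gene starts of members. On average 13.9% of member gene starts were covered by an HNF4α peak, against 0.91% of positions at 1000 bp before and 0.88% at 1000 bp after. Positions at these distances were counted whether or not they lay inside the member. Peaks in members within 250 bp of a gene start numbered 1497 and 1721 in the HFD libraries and 2033 and 1768 in the LFD libraries, and those elsewhere in members 1192, 1166, 1553 and 1194.

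The peaks at gene starts held the HNF4α core less often. It was found in 5.34%, 4.65%, 4.18% and 4.13% of them in HFD replicates 1 and 2 and LFD replicates 1 and 2. Of the peaks elsewhere in members it was found in 18.9% to 22.3% per library, and of the peaks in constant distal regions in 18.1% to 19.2%. Windows of equal size 1000 bp away held it in 0.848% to 2.01% of cases in these 3 places. In each of the 4 libraries the share at gene starts was below the share elsewhere in members. The median GC content was 63.8% to 65.0% for peaks at gene starts and 48.8% to 49.6% for peaks elsewhere in members. No test was made between sites of the same libraries, and the part of base composition in the difference was not tested.

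**Figure D5:**
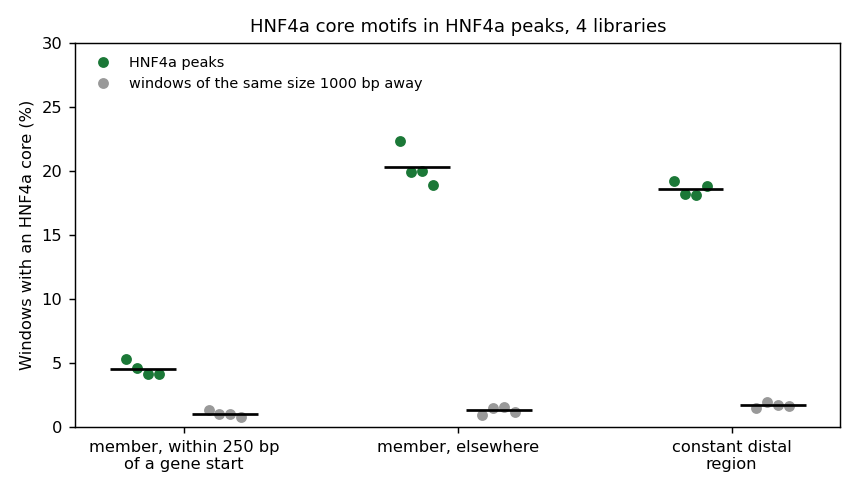
Share of HNF4α peaks (%) that held 1 of 4 HNF4α cores, by place, with a point per library and a line at the mean, beside windows of the same size 1000 bp away. Peaks in members within 250 bp of a gene start held a core in 4.13% to 5.34%, those elsewhere in members in 18.9% to 22.3%.

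Expression was higher where more libraries had HNF4α. The median level was 2.25 in genes of members without HNF4α, 2.61 with 1 library, 2.80 with 2, 2.95 with 3 and 3.16 with all 4. The median width rose in the same order, from 3800 bp to 6600 bp, and the part of width in the difference was not tested. Between levels and the number of HNF4α libraries Spearman's rho was 0.14 across 7780 member genes. Among genes with HNF4α in all 4 libraries the highest were Car1 (11.16), Rps12 (10.16), Slc25a5 (adenine nucleotide carrier of mitochondria, 10.02), Fau (ribosomal protein fusion, 9.78) and Ctss (a lysosomal protease, 9.34). At Rps12 the HNF4α peaks of all 4 libraries lay within 250 bp of the start, in a window without a searched core, as printed above. At Car1 and Fau none did.

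By gene list, HNF4α had a peak in at least 1 library in 50 of the 63 respiratory chain members, in 42 of the 64 ribosomal protein members and in 24 of the 31 proteasome members, but in all 4 libraries in 10, 7 and 0 of them. All 5 absorptive colonocyte members had HNF4α in at least 1 library and 3 had it in all 4. Over all members 31.1% had HNF4α in no library.

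The RNA of member genes was then compared between recipients. The question was whether genes at a region with an H3K27ac peak in every list changed with bacteria or diet. By edgeR's quasi-likelihood test with Benjamini-Hochberg adjustment over the 15893 genes tested, 0 of the 8228 member genes tested passed an adjusted p of 0.05 in any of the 5 comparisons, as did 0% of all genes. The lowest adjusted p of a member gene was 0.495 for bacteria in HFD-fed recipients, 0.975 for bacteria in LFD-fed recipients, 0.300 for diet in HFB recipients, 0.881 for diet in LFB recipients and 0.386 for the interaction.

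At an unadjusted p under 0.05 in edgeR, 755 member genes differed by bacteria in HFD-fed recipients (9.18% of those tested, beside 9.07% of all genes). The count was 359 for bacteria in LFD-fed recipients (4.36%, beside 3.72%), 802 for diet in HFB recipients (9.75%, beside 7.46%), 356 for diet in LFB recipients (4.33%, beside 5.33%) and 1074 for the interaction (13.1%, beside 11.3%). DESeq2 called 23 member genes for bacteria in HFD-fed recipients (0.280% of those tested, beside 0.503% of all genes), 12 higher and 11 lower in HFDHFB. It called 1 for bacteria in LFD-fed recipients (0.0122%, beside 0.00629%) and 2 for diet in LFB recipients (0.0243%, beside 0.0692%). For diet in HFB recipients it called 115 (1.40%, beside 0.969%). Of these 101 were higher in HFDHFB, beside 0.799% of all genes called higher. The interaction had 84 (1.02%, beside 0.724%). DESeq2 gave no adjusted p for 1346 member genes for diet in HFB recipients and for 1825 for the interaction. The counts at an unadjusted p in edgeR moved both ways when 1 library was left out. For bacteria in HFD-fed recipients the count was 1340, 292 and 446 without HFDHFB replicates 1, 2 and 3, and for diet in HFB recipients it was 1435, 448 and 431. For the interaction it was 1648, 671 and 679 without the same libraries. For bacteria in LFD-fed recipients it was 587 without LFDHFB replicate 1, 156 without LFDHFB replicate 3 and 161 without LFDLFB replicate 1. For diet in LFB recipients it was 218 without HFDLFB replicate 2, 545 without HFDLFB replicate 3 and 159 without LFDLFB replicate 2.

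Changes in member genes were small, as were those of genes at wide constant promoters. The median absolute log2 fold change was 0.17 in member genes and 0.21 in all genes for bacteria in HFD-fed recipients, and 1.19% of member genes against 5.44% of all genes differed by over 1 on the log2 scale. Genes at wide constant promoters were close to member genes, with a median of 0.17 and 1.29% over 1. For diet in HFB recipients those shares were 0.61% and 3.57%. The spread between replicates was also smaller in member genes than in genes at variable promoters, with a median SD of 0.21 in log2 CPM, against 0.24 at wide constant promoters and 0.60 at variable promoters. In the highest quartile of log2 CPM the medians of members and variable promoters were 0.18 and 0.41.

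Of the lists of general cell functions, the respiratory chain had the largest share of members at an unadjusted p under 0.05 for diet in HFB recipients. Summed over the 63 respiratory chain members, HFDHFB had 18505, 19957 and 21849 CPM, HFDLFB 16655, 16579 and 18552 CPM, LFDHFB 16803, 16376 and 14366 CPM and LFDLFB 19895, 18156 and 17840 CPM. HFDHFB and LFDLFB both lay above LFDHFB in every library, while HFDHFB overlapped with HFDLFB and with LFDLFB. Of the 62 respiratory chain members tested for diet in HFB recipients, 45 had an unadjusted p under 0.05 and were higher in HFDHFB (beside 5.25% of all genes), none was lower, and the median log2 fold change was 0.40 against -0.03 over all genes. DESeq2 called 18 of them. When 1 library of these groups was left out, an alternative chosen after seeing the data, the count ran from 27 to 49, with 27 without HFDHFB replicate 3.

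Of the 63 ribosomal protein members tested, 38 were higher in HFDHFB than in LFDHFB at an unadjusted p under 0.05 and none was lower, with a median log2 fold change of 0.46. DESeq2 called 1. The summed levels were 29573, 41424 and 39111 CPM in HFDHFB and 31075, 27976 and 21736 CPM in LFDHFB, so the groups overlapped through HFDHFB replicate 1. By the same alternative, the count was 12 without HFDHFB replicate 2, 13 without HFDHFB replicate 3, 20 without LFDHFB replicate 2, 12 without LFDHFB replicate 3 and 50 without HFDHFB replicate 1. In the same comparison, 10 of 31 proteasome, 11 of 32 spliceosome, 3 of 23 translation initiation, 11 of 46 RNA polymerase II and Mediator and 0 of 22 histone acetylation members were higher at an unadjusted p under 0.05, and none was lower. The summed absorptive colonocyte level also separated these groups, at 20143 to 23070 CPM in HFDHFB and 24512 to 30444 CPM in LFDHFB. Its part in the difference was not tested.

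Bacteria were compared within each diet. In HFD-fed recipients 19 of 62 respiratory chain, 18 of 63 ribosomal protein and 13 of 32 spliceosome members were higher in HFDHFB than in HFDLFB at an unadjusted p under 0.05, beside 4.85% of all genes. The other lists of general cell functions had lower shares. Proteasome had 4 of 31 higher, RNA polymerase II and Mediator 3 of 46, translation initiation 1 of 23 and histone acetylation 0 of 22. In LFD-fed recipients 24 of 62 respiratory chain members, 1 of 63 ribosomal protein members and 5 of 32 spliceosome members were lower in LFDHFB than in LFDLFB, beside 1.72% of all genes. Proteasome had 6 of 31 lower, RNA polymerase II and Mediator 2 of 46, translation initiation 0 of 23 and histone acetylation 1 of 22. In the test of the interaction itself, 46 respiratory chain, 42 ribosomal protein and 14 spliceosome members had a positive difference at an unadjusted p under 0.05, beside 6.34% of all genes, and 0 passed adjustment in edgeR. DESeq2 called 11, 1 and 2 of them. Positive at the same unadjusted threshold were 11 of 31 proteasome and 8 of 46 RNA polymerase II and Mediator members. Translation initiation had 6 of 23 and histone acetylation 1 of 22. The interaction uses all 12 libraries of the 2 bacteria comparisons, and diet in HFB recipients uses the HFDHFB and LFDHFB libraries again, so these counts are not independent of each other. For diet in LFB recipients, 0 respiratory chain and 0 ribosomal protein members had an unadjusted p under 0.05. At that threshold 4 of 32 spliceosome members were lower in HFDLFB than in LFDLFB, beside 5.33% of all genes in either direction. The summed adipocyte level ran from 531 to 4680 CPM in HFDLFB and from 48.4 to 637 CPM in HFDHFB, and its part in these differences was not tested.

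The smallest p-values of the interaction were those of Rnaseh2c (a subunit of ribonuclease H2), Zfp771 (a zinc finger protein) and Snhg8 (a host gene of small nucleolar RNA). Rnaseh2c, with a start in the member at chr19:5601001-5604200, had 17.1, 19.1 and 21.9 CPM in HFDHFB and 12.6, 13.6 and 14.4 CPM in HFDLFB. On the LFD it had 10.7, 10.5 and 10.5 CPM in LFDHFB and 16.5, 15.7 and 14.1 CPM in LFDLFB. HFB recipients were thus higher on the HFD and lower on the LFD without overlap. The gene was chosen by its p, which favours such separation, so the separation is no further support. The log2 interaction was 1.06 ± 0.19 (SE), with an edgeR adjusted p of 0.386 and a DESeq2 adjusted p of 0.000208. The log2 interaction was 1.59 ± 0.31 (SE) for Zfp771 and 0.92 ± 0.19 (SE) for Snhg8, each with an edgeR adjusted p of 0.386. DESeq2 gave Snhg8 an adjusted p of 0.00269 and gave Zfp771 no adjusted p. In Zfp771, the group means were 6.71, 3.89, 3.06 and 5.36 CPM in HFDHFB, HFDLFB, LFDHFB and LFDLFB. In Snhg8, they were 16.9, 12.2, 10.2 and 13.9 CPM.

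By the rule for named genes, none was named for bacteria or diet alone, since none passed the adjusted threshold in edgeR. Cd274, which encodes the immune checkpoint ligand PD-L1 and was chosen after its values were seen, had the smallest p among members for bacteria in HFD-fed recipients. It had 7.41, 6.65 and 8.01 CPM in HFDHFB and 14.4, 19.5 and 13.5 CPM in HFDLFB. The groups did not overlap, which the choice by p favours. The log2 fold change was -1.11 ± 0.20 (SE), with an edgeR adjusted p of 0.495. H1f0, a linker histone gene chosen in the same way for bacteria in LFD-fed recipients, had 212, 226 and 222 CPM in LFDHFB and 436, 320.0 and 318 CPM in LFDLFB. The groups did not overlap, which the choice by p again favours. The log2 fold change was -0.70 ± 0.14 (SE), with an edgeR adjusted p of 0.975.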

How the data were processed

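ChIP-seq peak lists (23 H3K27ac, 12 H3K4me1 and 4 HNF4α) of colon epithelium were used. The 1 table of RNA counts was of cells scraped from the colon, labelled colon epithelium. The authors aligned reads to mm9, called histone peaks with SICER in 200 bp windows and HNF4α peaks with HOMER, and deposited positions in bp without a score, so ChIP-seq depth is unknown and the positions carry no height. They deposited raw RNA counts per gene from STAR and featureCounts, not normalized, with library totals of 39904191 to 48026846. Inputs (33 samples) were not used here. The strand setting of the counting is not given in the sources used here.

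Regions were the unions of peaks sharing 1 bp or more, and gene starts were taken from the table's positions and strand. The members and the gene lists were chosen with earlier results of these data known. Exon lengths came from GENCODE vM1 and sequences from the mm9 genome. Counts were tested in R 4.3.3 with edgeR 4.0.16 (TMM, filterByExpr, quasi-likelihood F-test, 4 groups in 1 fit, Benjamini-Hochberg) and, as an alternative, DESeq2 1.42.0. CPM used the TMM factors, and log2 CPM a prior count of 2. Numbers of members were compared between diets by two-sided exact permutation tests. The labels do not say whether libraries came from separate animals, so p-values measure the spread between these samples. H3K27ac lists shared 54.0% to 71.0% of their covered length in pairs, so none was a copy of another. Scripts were tested on simulated data. Named genes were to be those past the adjusted threshold in edgeR (there were none) and those with the smallest interaction p, the highest and lowest levels, the highest levels with HNF4α in all 4 libraries or without H3K4me1, and the extremes of spread. Alternatives included DESeq2, no filter, a replicate block, other limits of the rule and leaving out each library.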

Additional observations from a re-analysis of the deposited data

How the results depend on the processing

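No member gene passed the adjusted threshold in edgeR without the filter on low counts, with a replicate block, with 1 gene per region, or with any single library left out (0 to 0 in all 5 comparisons). DESeq2 called 23, 1, 115, 2 and 84 member genes for bacteria in HFD-fed and LFD-fed recipients, for diet in HFB and LFB recipients and for the interaction. Same-numbered RNA libraries correlated between -0.59 and 0.45 in their deviations from group means, so the numbers do not pair the samples, and those of H3K4me1 libraries, in the covered share of members, between -0.03 and 0.04. With the replicate block, the members at an unadjusted p under 0.05 numbered 528, 191, 583, 240 and 763. The rule gave 7360 members, 4144 with a width limit of 5000 bp and 1336 where each list's peaks had to cover at least 50% of the region, and 7377 to 7450 with 1 list left out. Members with HNF4α in at least 2 of 4 libraries numbered 2986. The median level was 2.78 with 1 gene per region and 2.75 in genes past the filter. The H3K4me1 difference over both sexes was -164 with p = 0.0625 under the replicate block (exact permutation test) and -3.00 for peaks anywhere. With a library left out it ran from -191 to -125 over both sexes, from -279 to -235 in males and from -125 to 5.33 in females, where it turned without HFD female replicate 2. For peaks anywhere in the member the female difference turned to 48.7. The HNF4α difference ran from -611 to -157 with a library left out. The replicate block left the male and female differences at -256 and -72.0 and that of HNF4α at -384. The peak lists carry no counts, so the depth behind a missing peak is unknown.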
